A study of Mus musculus with 22 samples.

Results

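Extracellular ATP and its breakdown product adenosine act on T cells through 2 receptor families and a chain of surface enzymes, and 5 genes of that system were followed here in mouse CD8+ T cells: P2rx7, P2rx4, Entpd1, Nt5e and Adora2a. They were matched by gene symbol, and by Ensembl identifier in the count table, which holds 46603 genes. P2rx7 was selected on its measured response to activation, which differed in cells with a Tcaim knock-in, so its knock-in and wt values are given as a description with no test. The other 4 genes were chosen by their place in the pathway, with earlier results of these data known, and were tested. Their p-values do not allow for that choice. All 5 members passed the filter on low counts, as did 21183 genes in all.

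RNA was sequenced in bulk from 22 libraries of CD8+ T cells of 8 mice, either naive or stimulated for 24 h or 48 h with antibodies to CD3 (coated on the plate) and CD28 (in solution), which mimic antigen and costimulation. Wt mice (3) belong to the line Tcaim KI Cd4Cre with the genotype label wtcre, and KI mice (3) to the same line with the label hocre. KO mice (2) belong to the line Tcaim KO Cd4Cre with the label hocre. Wt and KI cells were sequenced at all 3 times, and cells labelled KO naive and at 48 h only. Every line name carries Cd4Cre, a Cre recombinase under the Cd4 promoter, which is active while T cells develop in the thymus, so by the labels the controls carry it too. Wt and KI groups each hold 2 male mice and 1 female mouse, and both KO mice are female. No wt mice of the KO line were analysed here, so line cannot be told apart from the KO genotype. Sex can be told apart from it only in part, because wt mice are of both sexes and KO mice only female. Ages are not in the labels. Replicate numbers 1, 3 and 5 are the experiments the labels name, and each mouse gave 1 library per time.

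ATP released from activated or damaged cells opens P2X receptors, which are cation channels. P2X7 needs high ATP, and its prolonged opening makes a pore and can kill T cells, while P2X4 responds to lower ATP and supports calcium entry. CD39, encoded by Entpd1, converts ATP and ADP to AMP, and CD73, encoded by Nt5e, converts AMP to adenosine. Adenosine then acts on the receptor encoded by Adora2a, which couples to stimulatory G protein, raises cyclic AMP and dampens T cell activation.

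Total counts per library ranged from 62551905 to 93489115. Tcaim itself had a mean of 14.8 CPM (counts scaled to a common library size) in wt naive libraries, 141 in KI naive libraries and 17.2 in the naive libraries labelled KO. The KO label was therefore not matched by a lower gene-level count of Tcaim in naive cells. The 4 CD8 T cell markers summed to 2290 to 3750 CPM in naive libraries and to 1680 to 2330 CPM at 48 h. In naive libraries the 5 memory CD8 T cell markers summed to 386 to 465 CPM in wt and 643 to 818 CPM in KI. These ranges did not overlap. At 48 h they were 594 to 841 CPM in wt and 629 to 865 CPM in KI, which overlap. The part of memory markers in differences between KI and wt cells was not tested. Markers of other cells were also present, with 4 B cell genes at 951 to 1170 CPM in wt naive libraries and 443 to 646 CPM in wt libraries at 48 h. The library labelled KO naive replicate 1 stood apart, with 2209 CPM of B cell markers against 678 CPM in KO naive replicate 5. It also had 244 CPM of CD4 and regulatory T cell markers against 43.5 CPM in the other KO naive library. In bulk RNA, fewer cells of a type and less RNA per cell cannot be told apart.

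P2rx7 and P2rx4 are neighbours on chromosome 5 in the same direction, 16111 bases apart on GRCm38. P2rx7 (ENSMUSG00000029468) spans chr5:122643911-122691432 and P2rx4 (ENSMUSG00000029470) spans chr5:122707544-122729738. Their promoter windows are shown because the levels of these neighbours parted on activation. Each window runs from 250 bases before to 50 bases after a RefSeq transcript start on GRCm38.p6, plus strand, 5′ to 3′. Capitals mark matches on either strand to the AP-1 letters TGANTCA, the CRE letters TGACGTCA or the GC box letters GGGCGG. The P2rx7 window is chr5:122643677-122643976 and the P2rx4 window is chr5:122707294-122707593.
P2rx7: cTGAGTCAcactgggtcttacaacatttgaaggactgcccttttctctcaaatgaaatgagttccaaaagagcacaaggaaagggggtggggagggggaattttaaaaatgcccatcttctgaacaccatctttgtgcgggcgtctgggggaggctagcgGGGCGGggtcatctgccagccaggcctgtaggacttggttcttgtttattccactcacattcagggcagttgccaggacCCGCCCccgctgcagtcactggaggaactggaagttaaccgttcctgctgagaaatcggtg
P2rx4: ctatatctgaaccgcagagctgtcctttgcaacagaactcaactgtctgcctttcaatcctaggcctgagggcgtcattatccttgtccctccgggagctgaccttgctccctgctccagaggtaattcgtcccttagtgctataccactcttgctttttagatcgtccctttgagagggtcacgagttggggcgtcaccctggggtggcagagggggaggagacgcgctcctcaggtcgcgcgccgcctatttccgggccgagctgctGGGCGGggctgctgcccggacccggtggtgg

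The P2rx7 window holds 1 AP-1 match and 2 GC box matches, and the P2rx4 window holds 1 GC box match and neither of the other motifs. Among 32851 windows of the same length, 7.81% held the AP-1 letters, 1.79% the CRE letters and 35.7% the GC box letters. A second RefSeq start of P2rx7 (window chr5:122650133-122650432) had none of the 3 motifs. The P2rx4 window had 18 CpG dinucleotides and 60.3% GC, and the P2rx7 windows had 8 and 4 CpG with 53.3% and 51.7% GC, against a median of 7 CpG over all windows. RefSeq windows were found for 4 of the 5 genes. Entpd1 (ENSMUSG00000048120, chr19:40612366-40741602), Nt5e (ENSMUSG00000032420, chr9:88327197-88372092) and Adora2a (ENSMUSG00000020178, chr10:75316877-75334784) lie on other chromosomes.

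By FPKM, which allows levels of different genes to be compared, CD73 transcripts led in naive cells and adenosine receptor Adora2a transcripts led after activation. In wt naive libraries the mean FPKM was 10.55 ± 1.56 (SD, n = 3) for Nt5e and 6.13 ± 1.10 (SD, n = 3) for Adora2a. P2rx4 followed at 4.29 ± 0.313 FPKM (SD, n = 3) and P2rx7 at 4.13 ± 0.0379 FPKM (SD, n = 3), which did not differ beyond their spread. Entpd1 was lowest at 1.09 ± 0.210 FPKM (SD, n = 3). Nt5e was highest in 8 of 8 naive libraries, and Entpd1 was lowest in the same 8.

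At 48 h Adora2a was the highest of the 5 genes in 8 of 8 libraries, and at 24 h in 4 of 6. In wt cells at 48 h its mean FPKM was 13.5 ± 5.53 (SD, n = 3), above Nt5e at 4.15 ± 2.25 (SD, n = 3) and P2rx4 at 2.54 ± 0.720 (SD, n = 3). Nt5e and P2rx4 overlapped within their spread. Entpd1 had 0.264 ± 0.0973 FPKM (SD, n = 3) and P2rx7 0.107 ± 0.0190 FPKM (SD, n = 3). In KI cells at 48 h the lowest 2 changed places, with P2rx7 at 0.496 ± 0.123 FPKM (SD, n = 3) and Entpd1 at 0.231 ± 0.0586 FPKM (SD, n = 3).

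**Figure D1:**
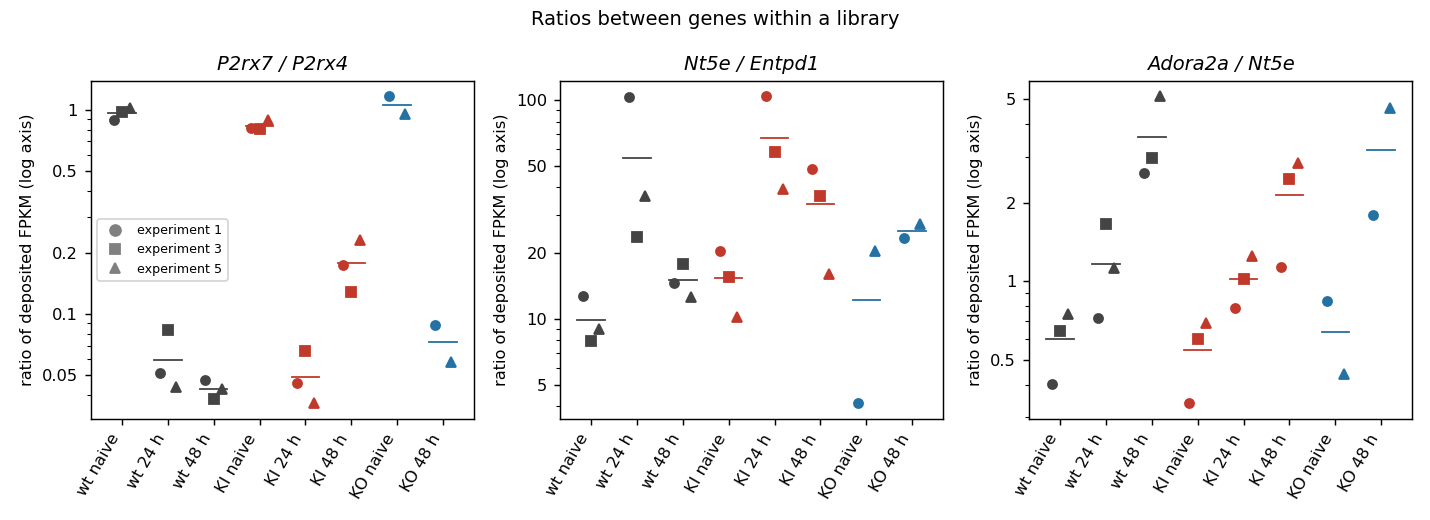
Ratios of FPKM between pairs of genes in every library (log axes, points by experiment, bars are group means). P2rx7 to P2rx4 stood between 0.803 and 1.16 in naive libraries, and between 0.0384 and 0.0474 in wt and 0.128 and 0.232 in KI libraries at 48 h.

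Within a library, P2rx7 and P2rx4 had nearly equal FPKM in naive cells, with ratios of P2rx7 to P2rx4 of 0.896 to 1.03 in wt and 0.803 to 0.891 in KI. At 24 h the ratio was 0.0439 to 0.0831 in wt and 0.0365 to 0.0658 in KI, so the genotypes overlapped. At 48 h it was 0.0384 to 0.0474 in wt and 0.128 to 0.232 in KI, with no overlap. The 2 libraries labelled KO had 0.0583 and 0.0882 at 48 h, between the wt and KI ranges. The ratio of Nt5e to Entpd1, the adenosine-forming over the ATP-degrading enzyme, was 7.96 to 12.8 in wt naive cells, 23.8 to 104 at 24 h and 12.6 to 17.9 at 48 h, when it overlapped the naive range. In KI cells it was 10.3 to 20.4 naive, 39.2 to 104 at 24 h and 16.1 to 48.3 at 48 h. The ratio of Adora2a to Nt5e was 0.403 to 0.748 in wt naive cells and 2.61 to 5.12 at 48 h, and 1.13 to 2.84 in KI cells at 48 h.

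**Figure D2:**
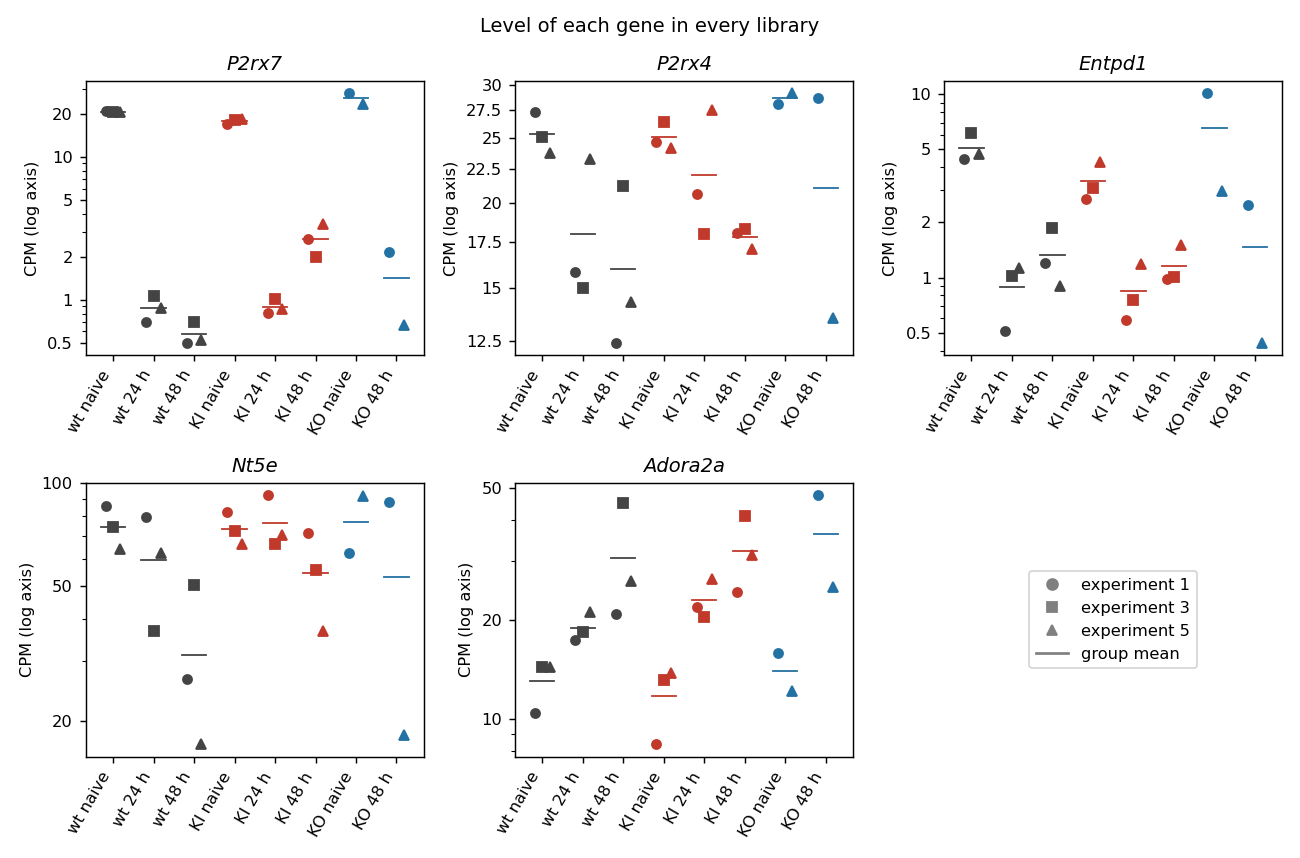
CPM of the 5 genes in each of the 22 libraries (log axes, 1 panel per gene, points by experiment, bars are group means). The 3 KI libraries at 48 h lie above the 3 wt libraries at 48 h for P2rx7, which was chosen on its response in KI cells. The KI and wt ranges overlap for the other 4 genes at 48 h.

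P2rx7, the ATP-gated channel tied to pore formation and death of T cells, was detected in every naive library and was far lower after activation in every mouse. Wt naive libraries had 20.8, 20.7 and 20.7 CPM, nearly equal to each other. Wt libraries had 0.69, 1.06 and 0.87 CPM at 24 h and 0.50, 0.69 and 0.52 CPM at 48 h. Every activated wt library thus lay below every naive one. The fitted log2 difference from naive was -4.56 (SE 0.325) at 24 h and -5.18 (SE 0.337) at 48 h, the latter a level 36.1 times lower.

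KI naive libraries had 16.99, 18.01 and 18.29 CPM of P2rx7, all below the 3 wt naive values, and 0.81, 1.01 and 0.85 CPM at 24 h, inside the wt range. At 48 h the KI libraries had 2.67, 1.99 and 3.36 CPM. These were above both the KI libraries at 24 h and the wt libraries at 48 h, with no overlap. Raw counts of P2rx7 at 48 h were 42, 55 and 39 in wt and 183, 145 and 240 in KI. Between 24 h and 48 h the fitted log2 difference was 1.59 (SE 0.296) in KI and -0.61 (SE 0.307) in wt. Each KI mouse had more P2rx7 at 48 h than at 24 h, and each wt mouse had less.

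At 48 h P2rx7 was 4.66 times higher in KI than in wt cells by the fit, a log2 difference of 2.22 (SE 0.307). Within experiments 1, 3 and 5 the difference on the log2 CPM scale was 2.40, 1.51 and 2.67. The KI minus wt difference in the change from naive to 48 h was 2.44 (SE 0.410) on the log2 scale, and from naive to 24 h it was 0.25 (SE 0.407). These are the values P2rx7 was chosen for. NK cell markers, 3 genes that like P2rx7 were far lower after activation, summed to 0.0358 to 0.214 CPM in wt and 0.448 to 0.975 CPM in KI libraries at 48 h, and their part in the P2rx7 difference was not tested. Gamma delta T cell markers, also 3 genes, summed to 4.28 to 11.7 CPM in wt and 16.5 to 22.5 CPM in KI at 48 h, which was not tested either. The 4 stromal and endothelial markers were apart as well, at 86.4 to 92.2 CPM in wt and 146 to 196 CPM in KI libraries at 48 h, and at 114 to 158 CPM in wt and 170 to 206 CPM in KI at 24 h. Nearly all of that sum was Pecam1, which T cells also express, at 86.3 to 91.7 CPM in wt and 146 to 195 CPM in KI at 48 h. Of the other 3 genes, Col1a2 was at 0 in wt at 48 h and none reached 1 CPM in either genotype. The part of these markers was not tested.

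The libraries labelled KO had 27.8 and 23.7 CPM of P2rx7 when naive, then 2.15 and 0.67 CPM at 48 h. P2rx7 fell on activation in them, by -4.20 on the log2 scale (SE 0.389, edgeR quasi-likelihood F test, adjusted p = 1.36e-07). That test has 2 KO mice and takes its spread from all 8 groups. Over the 11 alternatives, fits by edgeR or DESeq2, the change was -5.14 to -3.70 and adjusted p was at most 0.0396. KO replicate 1 at 48 h lay in the KI range and KO replicate 5 in the wt range. The KO minus wt difference at 48 h, 1.28 on the log2 scale, became 1.90 when KO replicate 5 was left out and 0.23 when KO replicate 1 was. An exon of P2rx7 overlaps Mir8115 on the same strand, so some of its reads may have been split or shared.

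**Figure D3:**
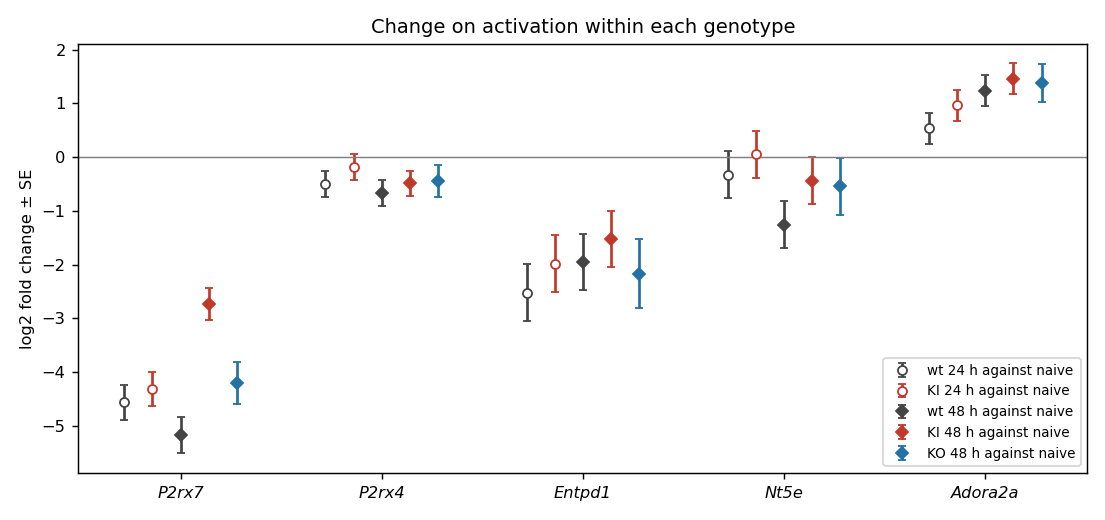
Fitted log2 fold change ± SE of each gene against naive cells of the same genotype (open circles 24 h, diamonds 48 h). P2rx7 stands at -5.18 in wt and -2.73 in KI at 48 h, and Adora2a is above 0 in all 5 comparisons.

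P2rx4, the P2X channel that answers to lower ATP, changed little beside P2rx7. Wt naive libraries had 27.3, 25.1 and 23.7 CPM, wt at 24 h 15.81, 14.98 and 23.27 CPM and wt at 48 h 12.4, 21.2 and 14.3 CPM. All wt libraries at 48 h lay below the naive ones. The fall at 48 h was -0.67 on the log2 scale (SE 0.240, edgeR adjusted p = 0.024), a level 1.59 times lower. This call was lost without wt replicate 1 (adjusted p = 0.235) or 5 (adjusted p = 0.077).

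KI libraries had 24.6, 26.4 and 24.2 CPM of P2rx4 naive, 20.62, 17.98 and 27.54 CPM at 24 h and 18.1, 18.3 and 17.1 CPM at 48 h. Their log2 difference at 48 h was -0.49 (95% interval -1.004 to 0.024, edgeR adjusted p = 0.0989), which passed the threshold with DESeq2 (adjusted p = 0.047), with upper-quartile scaling (edgeR adjusted p = 0.030) and with only the compared groups (edgeR adjusted p = 0.000975), and in none of the other 9 alternatives. P2rx4 at 24 h was not called in wt (-0.49, edgeR adjusted p = 0.0967) or KI (-0.18, edgeR adjusted p = 0.571). In wt it was called in 4 of 12 alternatives. These were DESeq2, upper-quartile scaling, only the compared groups and leaving out wt replicate 5 (edgeR adjusted p = 0.041). The libraries labelled KO had 28.1 and 29.1 CPM when naive, then 28.6 and 13.5 CPM at 48 h, so 1 of the 2 mice kept the naive level. Without KO replicate 1 the KO change in P2rx4 was -1.10 (edgeR adjusted p = 0.017). Leaving out a KO mouse leaves 1 library in each KO group, so for this and the other genes that p assumes that the lone library varies like the other groups.

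Entpd1, which encodes the CD39 enzyme that removes ATP, was low in naive cells and fell on activation in all 3 genotypes. Wt libraries had 4.46, 6.19 and 4.70 CPM naive, 0.51, 1.02 and 1.13 CPM at 24 h and 1.20, 1.86 and 0.90 CPM at 48 h. Naive and activated libraries did not overlap. The log2 fold change was -2.52 (SE 0.537, edgeR adjusted p = 0.000793) at 24 h and -1.95 (SE 0.524, adjusted p = 0.00402) at 48 h.

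KI libraries had 2.67, 3.09 and 4.29 CPM of Entpd1 naive, 0.59, 0.76 and 1.19 CPM at 24 h and 0.98, 1.00 and 1.51 CPM at 48 h. The fall was -1.98 (edgeR adjusted p = 0.00604) at 24 h and -1.52 (adjusted p = 0.0216) at 48 h. Without 1 KI mouse at a time the value at 48 h missed the threshold each time, with adjusted p from 0.087 to 0.112. At 24 h it missed without KI replicate 1 (adjusted p = 0.053) or 3 (adjusted p = 0.058).

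KO replicate 1 had 10.1 CPM of Entpd1 naive and 2.49 CPM at 48 h, and KO replicate 5 had 2.98 and 0.44 CPM. The fall in these libraries was -2.17 (SE 0.646, edgeR adjusted p = 0.0111), and -2.74 without KO replicate 1. With a fit on the compared groups alone, adjusted p was 0.236. CD39 is also known on B cells, regulatory T cells and myeloid cells. The 6 myeloid markers summed to 90.5 to 217 CPM in wt naive libraries and 13.6 to 22.5 CPM at 48 h, and to 84.5 to 178 CPM and 13.8 to 21.4 CPM in KI libraries. In KO replicate 1 they summed to 242.6 CPM naive and 17.17 CPM at 48 h, and in KO replicate 5 to 86.15 and 14.99 CPM. None of the 6 myeloid or 4 B cell markers was at 0 in any group, and their part in the Entpd1 fall was not tested.

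Nt5e, which encodes the CD73 enzyme that forms adenosine, was the most abundant of the 5 by FPKM in naive cells and varied widely between mice after activation. Wt libraries had 85.8, 74.3 and 63.9 CPM naive, 79.6, 36.6 and 62.4 CPM at 24 h and 26.5, 50.3 and 17.04 CPM at 48 h. The 48 h values lay below all naive values, and the 24 h values overlapped them. Nt5e fell by 48 h in wt cells, at -1.25 on the log2 scale (SE 0.440, edgeR adjusted p = 0.0210). The call was lost without wt replicate 1 (adjusted p = 0.151) or 5 (adjusted p = 0.112), and with no low-count filter (adjusted p = 0.057).

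KI libraries had 82.2, 72.5 and 66.3 CPM of Nt5e naive, 92.4, 66.3 and 70.4 CPM at 24 h and 71.2, 55.5 and 36.7 CPM at 48 h. Naive and 48 h values overlapped, and the log2 difference of -0.44 (95% interval -1.37 to 0.49) was not called (edgeR adjusted p = 0.424). At 24 h the difference was 0.05 in KI (edgeR adjusted p = 0.939) and -0.33 in wt (adjusted p = 0.555). The libraries labelled KO had 62.6 and 91.6 CPM when naive, then 88.0 and 18.2 CPM at 48 h, moving in opposite directions in the 2 mice. Their fitted difference was -0.54 (edgeR adjusted p = 0.432), and -2.33 without KO replicate 1 (adjusted p = 0.00755, with 1 library in each KO group and the spread of the other groups).

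Adora2a, the adenosine receptor that signals through cyclic AMP, was the 1 member that rose on activation. Wt libraries had 10.4, 14.4 and 14.4 CPM naive, 17.3, 18.3 and 21.1 CPM at 24 h and 20.9, 45.2 and 26.3 CPM at 48 h. Neither activated group overlapped the naive one. At 48 h Adora2a was 2.35 times higher than naive, or 1.24 on the log2 scale (SE 0.285, edgeR adjusted p = 0.00122). At 24 h the wt difference of 0.53 was not called (edgeR adjusted p = 0.126). It was called in 2 of 12 alternatives, 1 of them the mouse as a block (0.56, edgeR adjusted p = 0.038).

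KI libraries had 8.41, 13.1 and 13.8 CPM of Adora2a naive, 21.9, 20.3 and 26.5 CPM at 24 h and 24.3, 41.1 and 31.4 CPM at 48 h, with no overlap between naive and activated. The rise was 0.96 (SE 0.284, edgeR adjusted p = 0.0116) at 24 h and 1.46 (SE 0.287, adjusted p = 0.000384) at 48 h. The 24 h call was lost without KI replicate 1 (adjusted p = 0.098) or 5 (adjusted p = 0.051). The libraries labelled KO had 15.8 and 12.2 CPM when naive, then 47.5 and 25.2 CPM at 48 h, a rise of 1.38 (SE 0.350, adjusted p = 0.00377). It missed the threshold without KO replicate 1 (adjusted p = 0.074) and with only the compared groups in the fit (adjusted p = 0.11).

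Activation changed a large share of all genes, and the counts over the 4 tested members are read against it. In wt cells at 24 h 1 of the 4 was called, lower, where 48.3% of all genes tested were called (26.3% higher and 22% lower). At 48 h 4 of 4 were called, 1 higher and 3 lower, against 56.3% of all genes (29.5% higher and 26.8% lower). Their median log2 fold change at 48 h was -0.96, and that of all genes -0.04. In KI cells 2 of 4 were called at 24 h (1 higher, 1 lower) against 38.7% of all genes (22.9% higher, 15.8% lower). At 48 h it was again 2 of 4, against 48.6% (26.6% higher, 22.1% lower), with medians of -0.46 for the members and -0.02 for all genes. In the libraries labelled KO 2 of 4 were called at 48 h against 44% (23.6% higher, 20.4% lower), and 0 of 4 with only the compared groups in the fit.

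Between 24 h and 48 h no tested member was called by edgeR in wt cells, where 7.49% of all genes were, or in KI cells, where 2.68% were. In wt cells 2 of the 4, Nt5e (-0.93) and Adora2a (0.70), had an unadjusted p under 0.05, in KI cells 0 did, and DESeq2 called 0 in either.

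**Figure D4:**
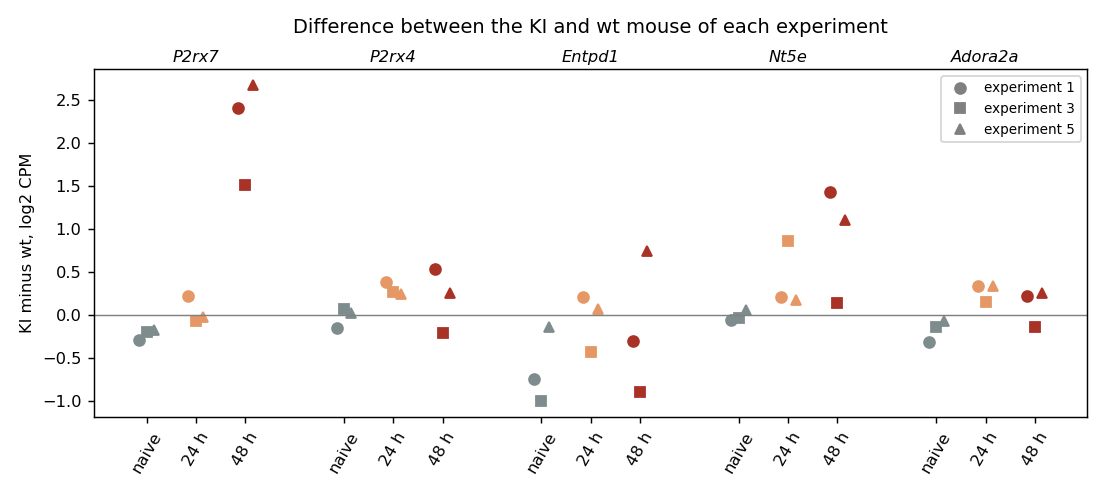
KI minus wt difference in log2 CPM between the mice of the same experiment, at each time, for the 5 genes. P2rx7 stands at 1.51 to 2.67 at 48 h and between -0.29 and 0.22 earlier, and Nt5e at 0.14 to 1.42 at 48 h.

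None of the 4 tested members was called between KI and wt cells at any time. The edgeR call rate over all genes was 0.113% naive, 0.00472% at 24 h and 4.17% at 48 h, and for the 4 members the count at an unadjusted p under 0.05 was 0 at each time, as was the count by DESeq2. Nt5e had the widest difference at 48 h, 0.80 on the log2 scale (95% interval -0.14 to 1.73, edgeR adjusted p = 0.358). Within experiments 1, 3 and 5 it was 1.42, 0.14 and 1.11. P2rx4 differed by 0.16 (95% interval -0.35 to 0.67), Entpd1 by -0.18 (-1.29 to 0.93) and Adora2a by 0.07 (-0.53 to 0.67) at 48 h. The intervals for Entpd1 and Nt5e reach past 1 in size on the log2 scale, so differences of that size are not excluded.

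The change on activation was also compared between genotypes directly. For KI minus wt, 0 of 4 members were called from naive to 24 h, where 0% of all genes were (694 at an unadjusted p under 0.05, 4 by DESeq2). From naive to 48 h 0 of 4 were called against 0.387% of all genes, with 0 members at an unadjusted p under 0.05 and 0 by DESeq2. The difference in response was 0.82 (95% interval -0.50 to 2.13) for Nt5e, 0.43 (-1.12 to 1.98) for Entpd1, 0.22 (-0.63 to 1.07) for Adora2a and 0.18 (-0.55 to 0.90) for P2rx4. The call of Nt5e in wt and not in KI cells at 48 h is therefore not shown to be a difference between them.

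Cells labelled KO did not give a called difference from wt in any of the 4, against 0.0236% of all genes naive and 0.0283% at 48 h, and with 0 members at an unadjusted p under 0.05 and 0 by DESeq2. For the KO minus wt response 0 of 4 were called, where 0% of all genes were (492 at an unadjusted p under 0.05, 0 by DESeq2). The 2 mice differed at 48 h in each of the 5 genes. KO replicate 1 had the higher value every time, 88.0 against 18.2 CPM for Nt5e and 2.15 against 0.67 CPM for P2rx7. KO replicate 1 also had more of several marker sums at 48 h, with 196 against 47.4 CPM for CD4 and regulatory T cells, 710 against 488 CPM for B cells, 17.5 against 6.87 CPM for gamma delta T cells and 1.30 against 0.170 CPM for NK cells. Their part in the differences between the mice was not tested. With KO replicate 1 as the lone KO library at 48 h, the KO minus wt difference was 1.49 for Nt5e (edgeR adjusted p = 0.027) and 0.84 for P2rx4 (adjusted p = 0.030), p-values that take the spread from the other groups. With KO replicate 5 as the lone library it was -0.78 and -0.24.

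Beyond the 5 members, lists of ATP release, other P2X and P2Y receptors, other nucleotide hydrolases, other adenosine receptors, adenosine uptake and clearance, extracellular NAD and cyclic AMP signalling held 66 genes, of which 58 passed the filter. In wt cells at 48 h 18 rose, 21 fell and 19 were not called, with a median of -0.30, where 29.5% of all genes were called higher and 26.8% lower. In KI cells at 48 h 23 rose, 17 fell and 18 were not called, with a median of 0.14, against 26.6% higher and 22.1% lower over all genes. In the libraries labelled KO 20 rose, 14 fell and 24 were not called, with a median of -0.12, against 23.6% higher and 20.4% lower. At 24 h 19 rose, 19 fell and 20 were not called in wt, against 26.3% higher and 22% lower over all genes. In KI at 24 h 19 rose, 15 fell and 24 were not called, against 22.9% higher and 15.8% lower.

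In the list of adenosine uptake and clearance genes, which also holds the adenosine-forming enzyme gene Ahcy, 9 genes were tested. At 48 h 6 rose and 2 fell in wt, 7 rose and 1 fell in KI and 7 rose and 2 fell in the libraries labelled KO. The shares of all genes at 48 h are those given above. The list's median log2 fold change was 1.39 in wt and 1.04 in KI, and that of all genes -0.04 and -0.02. Slc29a1, an equilibrative nucleoside transporter, rose by 2.05 in wt and 2.35 in KI on the log2 scale. Adk, which phosphorylates adenosine, rose by 1.65 and 1.91, and Ahcy, which forms adenosine from S-adenosylhomocysteine rather than clearing it, by 2.13 and 2.29. Ada, which deaminates adenosine, rose by 1.39 in wt and 0.68 in KI, the latter lost without any 1 KI mouse (edgeR adjusted p from 0.079 to 0.109) and with upper-quartile scaling. Slc28a2, a concentrative nucleoside transporter, fell by 1.49 in wt and fell by 0.94 in KI cells.

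**Figure D5:**
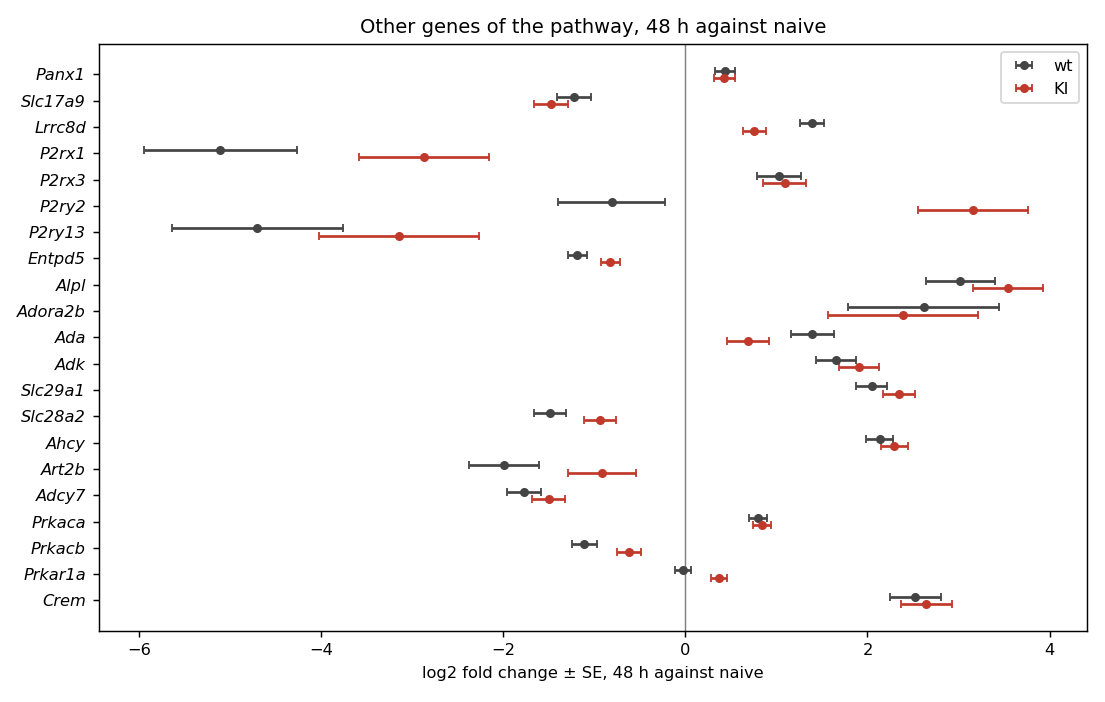
Fitted log2 fold change ± SE at 48 h against naive for other genes of the pathway, in wt and KI cells. Slc29a1, Adk and Ahcy lie to the right of 0 in both genotypes, and P2ry2 stands at -0.81 in wt and 3.16 in KI.

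Among genes for ATP release, Slc17a9, the vesicular nucleotide transporter, fell by 1.23 in wt and fell by 1.48 in KI cells at 48 h, and Panx1, a channel that lets ATP out, rose by 0.44 and 0.43. The Panx1 rise at 48 h was not called with upper-quartile scaling in either genotype (edgeR adjusted p of 0.076 and 0.055), and in wt it also missed without wt replicate 1 (adjusted p = 0.071). Lrrc8d, a subunit of volume-regulated anion channels, rose by 1.39 in wt and by 0.76 in KI. At 48 h the KI minus wt difference was -0.58 (SE 0.129, edgeR adjusted p = 0.0156), a call lost without KI replicate 1 or 5, without wt replicate 1 and with only the compared groups. An exon of Lrrc8d overlaps the antisense gene Lrrc8dos, and reads of the 2 cannot be told apart where counting ignored strand.

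Of other P2X receptors, P2rx1 had 40, 81 and 41 counts in wt naive libraries and 0, 3 and 2 at 48 h, and fell in KI as well, with 48, 57 and 41 counts naive and 7, 5 and 8 at 48 h. P2rx3 rose by 1.03 in wt, but its exons overlap the abundant gene Ssrp1 on the opposite strand, which makes its count uncertain. Of the P2Y receptors, which are G protein-coupled, P2ry6 had 17, 36 and 44 counts in wt naive libraries and 0 in each wt library at 48 h, at least 37.0 times lower against a floor of 3 counts over the group. Myeloid markers moved in the same direction, as given beside Entpd1, and their part here was not tested.

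P2ry2, a P2Y receptor for ATP and UTP, had 4 to 24 counts in naive libraries. At 24 h the genotypes overlapped, at 0.42 to 0.76 CPM in wt and 0.49 to 0.71 CPM in KI, and P2ry2 had risen by 1.61 (edgeR adjusted p = 0.0234) and 2.47 (adjusted p = 0.0028) on the log2 scale. The wt rise at 24 h was lost without wt replicate 1 or 5 (adjusted p of 0.096 and 0.119). P2ry2 had 0.12, 0.11 and 0.12 CPM in wt libraries at 48 h and 0.53, 0.73 and 1.48 CPM in KI libraries, with no overlap. From 24 h to 48 h it fell by 2.42 in wt cells (edgeR adjusted p = 0.0157), a call lost without any 1 wt mouse (adjusted p from 0.065 to 0.135). The KI minus wt difference at 48 h was 2.94 (SE 0.586, edgeR adjusted p = 0.00787). Without KI replicate 5 it was 2.39 (adjusted p = 0.067), without wt replicate 1 it was 2.95 (adjusted p = 0.051) and with only the compared groups adjusted p was 0.056.

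Of other nucleotide hydrolases, Alpl, an alkaline phosphatase that can dephosphorylate AMP, rose from 14, 22 and 38 counts in wt naive libraries to 656, 919 and 755 at 24 h, a log2 fold change of 4.71 (SE 0.401). Entpd5, the most abundant of that list by FPKM in naive cells, fell by 1.19 in wt at 48 h. Adora2b, the lower-affinity adenosine receptor, rose by 2.62 in wt (edgeR adjusted p = 0.0122) and 2.39 in KI (adjusted p = 0.0226) at 48 h from 3, 8 and 14 counts in wt naive libraries. Both calls were lost without replicate 3 (adjusted p of 0.128 in wt and 0.094 in KI) or without replicate 1 (0.064 in both).

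Downstream of adenosine receptors, Crem, a cyclic AMP-responsive factor, rose by 2.52 in wt and 2.65 in KI cells at 48 h. Adcy7, an adenylyl cyclase, fell by 1.78 in wt and fell by 1.5 in KI, and the protein kinase A subunits moved apart, with Prkaca rising by 0.80 and Prkacb at -1.11 in wt. Crem overlaps Gm6225 on the opposite strand. Prkar1a, a regulatory subunit, was higher in KI than wt at 48 h by 0.34 (SE 0.0864, edgeR adjusted p = 0.0313), a call lost without any 1 of the 6 mice (adjusted p from 0.059 to 0.217), with no low-count filter and with only the compared groups.

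Art2b, an ectoenzyme that uses extracellular NAD to modify and open P2X7, fell in wt cells at 48 h. Wt libraries held 60.9, 49.2 and 60.4 CPM when naive, then 16.58, 10.48 and 15.84 CPM at 48 h, or -1.99 on the log2 scale (SE 0.385, edgeR adjusted p = 0.000253). KI libraries held 56.4, 53.1 and 69.3 CPM when naive, then 35.9, 30.8 and 28.3 CPM at 48 h, which lay above the wt libraries at 48 h. The log2 difference of KI at 48 h from naive was -0.91 (edgeR adjusted p = 0.051). It was called in 6 of 12 alternatives, 1 of them the mouse as a block (-0.92, edgeR adjusted p = 0.0049). The KI minus wt difference at 48 h, 1.15 (SE 0.377), was not called by edgeR (adjusted p = 0.0971) and was called by DESeq2 (adjusted p = 0.036). Art2a is a close copy of Art2b, so reads may have been split between them.

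The genes most like each member were taken by Pearson r of mean log2 CPM over the 8 groups, as a description. For P2rx7 they were Pdlim4 (r = 0.997), Ppargc1a (r = 0.995) and Col4a2 (r = 0.993), with r of 0.950, 0.840 and 0.911 over the 22 libraries. For P2rx4 they were 4930473A02Rik (0.995), Ccnl2 (0.990) and Ighv2-9-1 (0.989), with 0.871, 0.893 and 0.596 over the libraries. For Entpd1 they were Mmp2 (0.997), Kctd12 (0.994) and Nuak2 (0.993), with 0.755, 0.946 and 0.928 over the libraries. For Nt5e they were Abcc5 (0.991), Gm26672 (0.990) and Taf1b (0.988), with 0.922, 0.634 and 0.898 over the libraries. For Adora2a they were Fas (0.995), Cacnb3 (0.993) and Pck2 (0.992), with 0.937, 0.891 and 0.880 over the libraries. The groups share mice and the naive to activated difference, so high r arises readily. Among the members, P2rx7 and Entpd1 had r = 0.945 over the groups and 0.873 over the libraries, and Adora2a and P2rx7 had -0.803 and -0.666.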

How the data were processed

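RNA of CD8+ T cells was sequenced in 22 libraries. Per the labels' protocols a stranded mRNA kit and paired ends were used. The submitters' processing notes name GRCm38 (mm10), bcl2fastq 2.20.0, TopHat2 2.1.0, Bowtie2 2.2.5, SAMtools 0.1.19, featureCounts and DESeq2 1.6.3. Their roles and the strand setting are not given in the sources used here. The deposited counts are whole numbers per Ensembl gene and were tested as they stand. The deposited log2 normalized values were used for symbols and positions. The deposited FPKM values were used only for levels between genes and in no test. Columns outside these samples numbered 0.

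Genes were kept by filterByExpr (minimum count 10, total 15). Counts were scaled by TMM, and a model of 8 group means over the 22 libraries was fitted (14 residual degrees of freedom) with robust estimation in edgeR 4.0.16 (R 4.3.3). Each contrast used the quasi-likelihood F test, two-sided, with Benjamini-Hochberg adjustment over 21183 genes, called at an adjusted p under 0.05. CPM use the TMM-scaled totals, and log2 CPM a prior count of 0.5. The procedure was tested on simulated data.

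The members and lists were chosen with earlier results of these data known. Named genes are the members, up to 4 genes per list with the smallest p among those called in a comparison, list genes that show what a branch looks like in these cells, and the 3 genes most like each member. P2rx7 was tested only in the libraries labelled KO, since its response in KI and wt cells chose it. Robust estimation was not part of the design as first written and is set against a fit without it.

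The labels name the mouse and experiment of each library, so these pair the samples. The main model of 8 group means holds no term for either, so its tests treat libraries of the same mouse as independent. Deviations of KI and wt libraries of the same time and experiment had a median correlation of 0.165 across genes, with 8 of 9 pairs over 0.1, and of other experiments -0.138. Libraries of the same mouse had 0.124 and of different mice -0.0298. No replicates were duplicate libraries (lowest chi-square over its degrees of freedom 15.4). The labels name separate mice. Positions are those of the deposited tables, and all 5 members match GENCODE M21 on GRCm38. Alternatives were DESeq2 1.42.0, other scalings, no low-count filter, experiment or mouse as a block, only the compared groups, sex as a covariate and leaving out each mouse.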

Additional observations from a re-analysis of the deposited data

Results flagged for a closer look

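The change of P2ry2, a P2Y receptor for ATP and UTP, from naive to 48 h differed between KI and wt cells by a test of the difference itself, a call that was lost in 10 of 15 alternatives. The KI minus wt difference in the change from naive to 48 h was 3.97 on the log2 scale (SE 0.837, edgeR quasi-likelihood F test, adjusted p = 0.0436). Counts were low, at 5, 24 and 13 in wt naive libraries, 10, 9 and 9 in wt libraries at 48 h, 11, 4 and 6 in KI naive libraries and 36, 53 and 106 in KI libraries at 48 h. With the experiment as a block the difference was 3.78 (adjusted p = 0.059) and with the mouse as a block 3.72 (adjusted p = 0.054). With library size scaling it was 3.98 (adjusted p = 0.051) and with only the compared groups 3.97 (adjusted p = 0.070). From naive to 24 h the difference was 0.86 (adjusted p = 1.00), with 0.42 to 0.76 CPM in wt and 0.49 to 0.71 CPM in KI libraries at 24 h. Leaving out any 1 of the 6 mice kept the direction, at 3.31 to 4.76, with adjusted p from 0.156 to 0.284. Both KO libraries at 48 h, with 12 and 39 counts, were above the wt libraries at 48 h.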

How the results depend on the processing

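The count of called members (of P2rx4, Entpd1, Nt5e and Adora2a) moved by over 1.5 times in these settings. In wt cells at 24 h it was 1, and 2 with DESeq2, with upper-quartile scaling and with the replicate block (mouse), and 3 with only the compared groups. In the libraries labelled KO at 48 h it was 2, and 0 with only the compared groups. Leaving out 1 mouse at a time gave 1 to 2 for wt 24 h, 2 to 4 for wt 48 h, 0 to 1 for KI 24 h, 1 to 1 for KI 48 h and 0 to 2 for KO against wt 48 h. Fits without a mouse or with only the compared groups hold fewer samples, and the other settings hold all 22 libraries. Over all genes in wt at 24 h, edgeR called 10233 in the main fit and DESeq2 called 10918. Shares of all genes under the other settings are not given here, so these counts are not read as particular to the members. The cause of the moves was not tested. Blocking also changed the calls of Adora2a in wt at 24 h (0.56 with the mouse block) and Art2b in KI at 48 h, and it ended those of the P2ry2 response and of P2ry2 in the libraries labelled KO at 48 h (1.75 and 1.79, adjusted p of 0.060 and 0.064). It changed no other call of a named gene. Upper-quartile scaling moved the median of all genes by -0.184 and -0.220 in wt (24 h, 48 h), -0.170 and -0.181 in KI, and -0.176 in KO. Library size scaling moved it by -0.106 in KO. No value called in the main fit changed direction in any setting run. Values not called there did. For KO minus wt at 48 h, Nt5e ranged from -0.78 to 1.49 and P2rx4 from -0.24 to 0.84 over the alternatives. Depth limits P2ry2, Adora2b, P2rx1 and P2ry6, whose counts are below 100 in most libraries.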
